A study of Mus musculus with 60 samples.

Results

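Small leucine-rich proteoglycans are secreted proteins of the extracellular matrix that bind collagen fibrils through a leucine-rich core, and 8 of their genes, *Ogn*, *Dcn*, *Lum*, *Bgn*, *Fmod*, *Omd*, *Aspn* and *Prelp*, were followed here among 46480 genes counted in whole tissue of mouse dentate gyrus (DG). The 8 genes were chosen by name, and the choice began with *Ogn*, selected on its lower counts after environmental enrichment in these same samples. The housing contrasts of the 8 genes are therefore descriptions, with counts past the limits given beside the share of all genes and no p values. The dorsal to ventral contrast was not part of the rule of choice, although earlier results of these data were known when the genes were chosen. Of the 8 genes, 7 passed the filter of more than 10 counts in at least 2 samples, as did 17040 of all genes. *Omd*, with 2 to 10 counts in the 18 samples, did not.

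Male C57BL6J mice were weaned on day 22 into standard housing (SH, 3 mice in a small cage) or an enriched environment (EE, 12 mice in a large cage with running wheels, a bridge and toys that were changed weekly). They stayed there for 8 weeks and were collected at an age of 80 days. Dorsal and ventral DG were punched from frozen brain slices, coronal for the dorsal and horizontal for the ventral DG, so region and plane of slicing cannot be told apart. Each sample pooled the tissue of several mice, and the dorsal and ventral samples with one number were taken to come from the same pool. The 4 groups were dorsal SH (n = 4), dorsal EE (n = 5), ventral SH (n = 4) and ventral EE (n = 5). SH replicate 3 was left out in both regions. The labels give no cage and no sequencing batch for a pool.

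The family is usually divided by sequence into classes. Decorin (*Dcn*), biglycan (*Bgn*) and asporin (*Aspn*) form one class, of which decorin and biglycan carry chondroitin or dermatan sulfate chains and bind TGF-beta. Lumican (*Lum*), fibromodulin (*Fmod*), prolargin (*Prelp*) and osteomodulin (*Omd*) form another, and fibromodulin and lumican share a binding region on collagen. Osteoglycin (*Ogn*, also called mimecan) belongs to a further class. In brain, transcripts of several members are best known from fibroblasts of the meninges and of blood vessels. Markers of meninges and of the smooth muscle, pericytes and endothelium of vessels were therefore measured beside them. No separate list of vessel fibroblast markers was used.

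Libraries held 22919364 to 28301861 fragments on genes in the 18 samples. Levels of a gene are given as CPM, its counts relative to the library size after TMM scaling, which equalizes libraries over most genes. Levels of different genes are compared as TPM, which also takes transcript length into account. Granule cell markers, which define the DG, were present in each group and their summed level was 1126 to 1351 CPM in dorsal and 570 to 826 CPM in ventral samples. Of the 8 granule cell markers 7 were higher in dorsal DG, led by *Dsp* (log2 fold change 1.47, SE 0.07), *Plk5* (1.24, SE 0.07) and *Prox1* (0.94, SE 0.06). Of all tested genes 15.9% were higher in dorsal DG by the same limits, which are given below.

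Per transcript length, the 8 genes spanned a wide range of low levels. *Dcn* had the highest median over the 18 samples, 4.17 TPM (2.00 to 6.64). *Ogn* followed with 2.88 TPM (1.45 to 5.17) and *Prelp* with 2.26 TPM (1.18 to 3.04). The order of these neighbours was not fixed, since *Dcn* lay above *Ogn* in 15 of 18 samples and *Ogn* above *Prelp* in 13 of 18. In dorsal SH, *Dcn* lay above *Ogn* in 1 of 4 samples, and in dorsal EE in 5 of 5. Below them came *Lum* with a median of 1.51 TPM (0.94 to 2.28) and *Bgn* with 1.10 TPM (0.83 to 1.67), with *Lum* above *Bgn* in 13 of 18 samples. *Fmod* (median 0.565 TPM), *Aspn* (0.31 TPM) and *Omd* (0.05 TPM) kept this order in 18 of 18 samples.

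**Figure D1:**
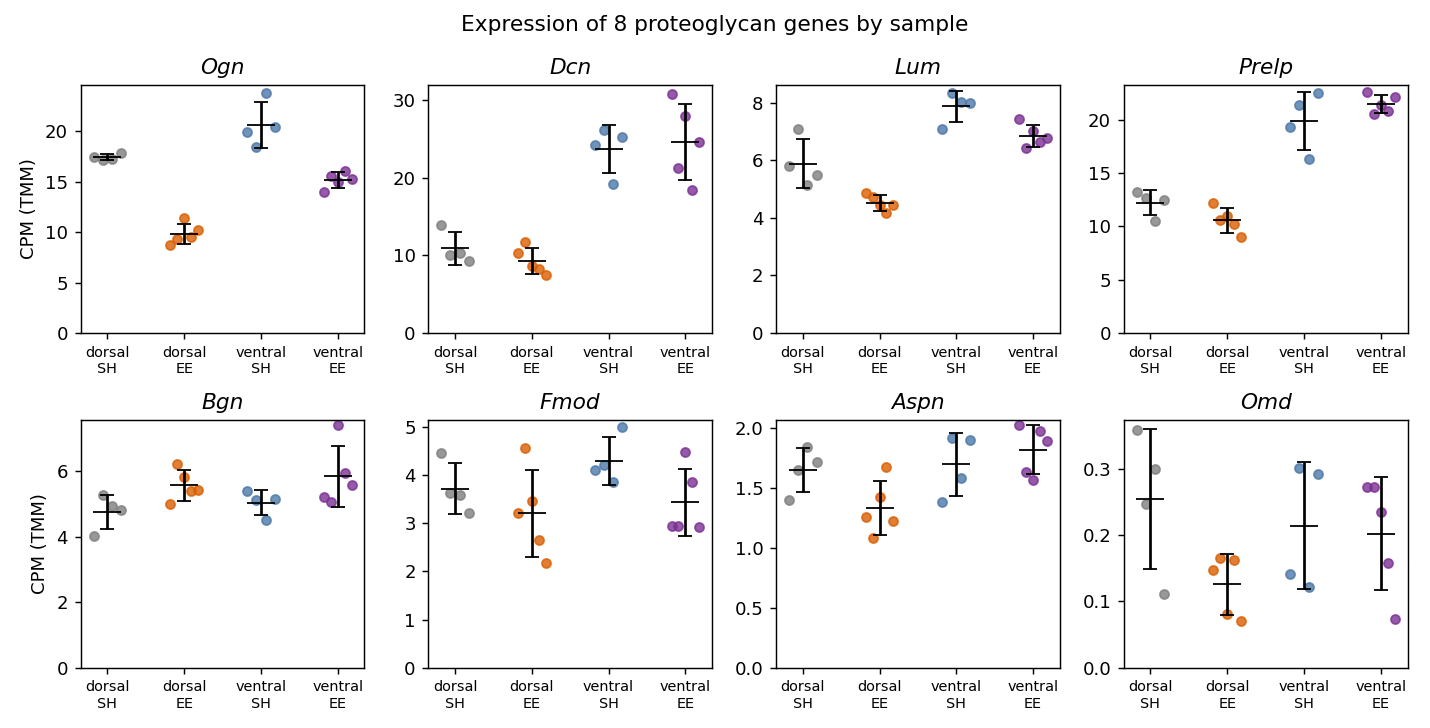
Each panel plots the CPM of one gene (vertical axis from 0) by group, with 1 point for each of the 18 samples and a black bar for the mean and SD (n = 4 in SH groups, n = 5 in EE groups). *Ogn* of both EE groups lies below the SH group of the same region, while *Dcn* and *Prelp* separate mainly by region, with each ventral sample above each dorsal sample.

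*Ogn*, the gene that led to the choice, was lower in EE in both regions. In dorsal SH the 4 samples held 17.4, 17.2, 17.3 and 17.9 CPM, and in dorsal EE the 5 samples held 8.73, 9.36, 11.4, 9.50 and 10.2 CPM. In ventral SH the values were 19.9, 18.5, 23.8 and 20.4 CPM, and in ventral EE they were 13.9, 15.6, 15.0, 16.1 and 15.3 CPM. The highest EE sample lay below the lowest SH sample in each region. Group means were 17.4 ± 0.318 CPM in dorsal SH and 9.84 ± 1.01 in dorsal EE, and 20.7 ± 2.27 in ventral SH and 15.2 ± 0.798 in ventral EE (SD). The log2 fold change of EE over SH was -0.83 (SE 0.08) in dorsal DG, a level lower by 1.77-fold, and -0.44 (SE 0.07) in ventral DG, lower by 1.36-fold. SH replicate 3, which entered no fit, had 16.2 CPM of *Ogn* in dorsal and 18.7 CPM in ventral DG when scaled with all 20 samples, above each EE sample of its region.

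None of the other 6 genes that could be fitted passed the limits (FDR of 0.05 and a change of 20%) in either housing contrast, so that *Ogn* was 1 of 7 in each. Over all genes the share past these limits was 0.634% in dorsal DG (0.246% for genes lower in EE) and 0.241% in ventral DG (0.0587% lower in EE). The choice of *Ogn* used these contrasts, and nothing is read from its count. The median log2 fold change of the 7 genes was -0.24 in dorsal and 0.06 in ventral DG, beside -0.003 and -0.0002 for the genes tested. In dorsal DG 6 of the 7 estimates were below 0, and in ventral DG 3 of 7.

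**Figure D2:**
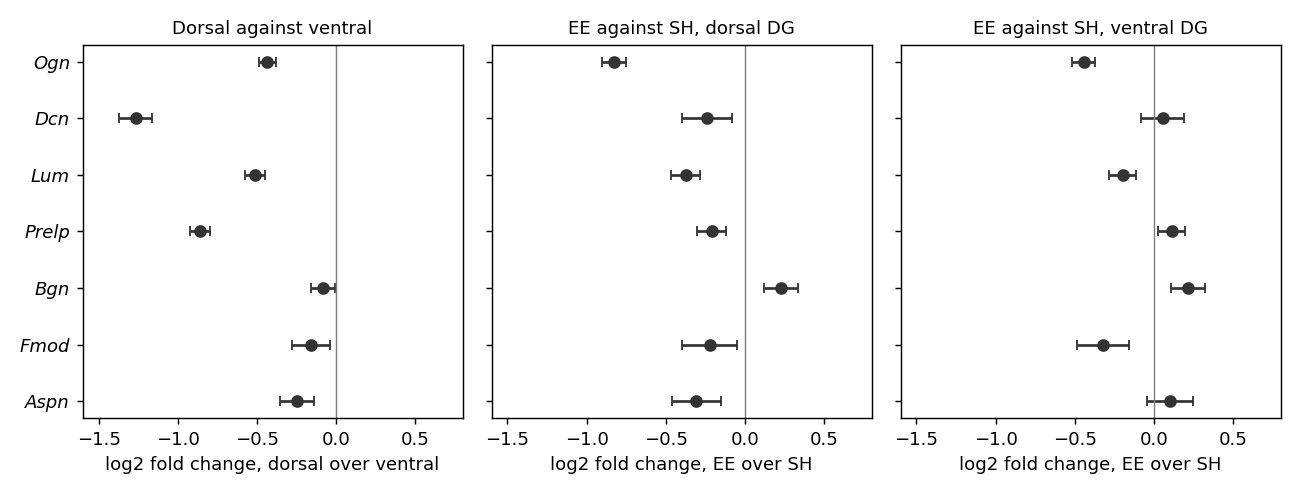
Points show the log2 fold change of 7 genes and bars the SE, in panels for dorsal over ventral DG, for EE over SH in dorsal DG and for EE over SH in ventral DG, all on one horizontal scale. *Dcn* stands farthest from 0 in the region panel (-1.27), and *Ogn* in both housing panels (-0.83 and -0.44).

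*Lum*, a keratan sulfate proteoglycan in cornea, was, with *Fmod*, one of the genes that shared the sign of *Ogn* in both regions. Its dorsal SH samples held 5.81, 7.08, 5.12 and 5.47 CPM and its dorsal EE samples 4.86, 4.72, 4.43, 4.16 and 4.44 CPM, which do not overlap. The log2 fold change was -0.37 (SE 0.09). In ventral DG the SH samples held 7.10, 8.34, 8.02 and 8.001 CPM and the EE samples 7.42, 6.43, 7.01, 6.62 and 6.78 CPM, which overlap, with a log2 fold change of -0.20 (SE 0.08). DESeq2 placed 2 genes past the limits in dorsal DG, *Ogn* and *Lum*, where edgeR placed 1.

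In the decorin class, *Dcn* and *Bgn* had estimates of unlike sign in dorsal DG. For *Dcn* the estimate was -0.24 (SE 0.16) in dorsal and 0.06 (SE 0.14) in ventral DG, and the dorsal value was -0.09 without SH replicate 1. The ventral value lay between -0.04 (without EE replicate 1) and 0.14 (without EE replicate 4) when 1 pool was left out, so its sign is not settled. *Bgn* had estimates above 0 in both regions, 0.23 (SE 0.11) and 0.21 (SE 0.11). Its mean was 4.76 ± 0.532 CPM in dorsal SH and 5.57 ± 0.460 in dorsal EE, and 5.04 ± 0.384 in ventral SH and 5.84 ± 0.938 in ventral EE (SD), with overlapping samples. Without EE replicate 3 the ventral estimate of *Bgn* was 0.11. *Aspn*, with 26 to 52 counts in a sample, had -0.31 (SE 0.15) and 0.10 (SE 0.15), the latter 0.01 without SH replicate 1.

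Of the fibromodulin class, *Fmod* had estimates of -0.22 (SE 0.17) in dorsal and -0.32 (SE 0.17) in ventral DG, and its groups overlapped in both regions. Its dorsal estimate was -0.10 without EE replicate 5 and -0.38 without EE replicate 2. *Prelp* had -0.21 (SE 0.09) and 0.11 (SE 0.08), again with overlapping groups, and the ventral value was 0.03 without SH replicate 4. *Omd* was fitted in neither contrast. Its samples held 0.112 to 0.359 CPM in dorsal SH, 0.0699 to 0.166 in dorsal EE, 0.122 to 0.301 in ventral SH and 0.0741 to 0.272 in ventral EE, levels that rest on 2 to 10 counts.

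An interaction term asked whether the housing difference itself was unequal in dorsal and ventral DG. For *Ogn* the dorsal log2 fold change was lower than the ventral one by an estimated -0.38 (SE 0.11), given without a test. Neither *Ogn* nor any of the other 6 genes passed the limits by edgeR or by DESeq2, where 0.00587% of all tested genes did by edgeR. At an unadjusted p under 0.05, which 3.25% of tested genes reached, *Prelp* was the only one of these 6, with -0.32 (SE 0.13, adjusted p = 0.9999 by edgeR).

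*Ogn* lies in a row of family genes on chromosome 13 (GRCm38), in which *Ecm2*, *Aspn*, *Omd* and *Ogn* follow each other on the plus strand. *Ogn* spans chr13:49608046-49624501, *Omd* chr13:49582462-49592822, *Aspn* chr13:49544443-49567565 and *Ecm2* chr13:49504810-49532789. *Cenpp*, which encodes a centromere protein, overlaps all of them on the minus strand, and the counts used here were made by strand. *Ecm2*, a matrix protein with leucine-rich repeats and no member of the 8, was lower in EE as well. Its dorsal SH samples held 8.89, 10.9, 10.1 and 9.27 CPM and its dorsal EE samples 6.37, 6.51, 7.81, 7.18 and 7.06 CPM, without overlap. Its log2 fold change was -0.49 (SE 0.09) in dorsal DG, past both limits, and -0.28 (SE 0.08) in ventral DG, not past them. The EE and SH samples of *Ecm2* did not overlap in ventral DG either. *Aspn*, between *Ecm2* and *Ogn*, passed in neither region, and the estimates of *Cenpp* on the other strand were 0.05 (SE 0.12) and -0.28 (SE 0.13).

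**Figure D3:**
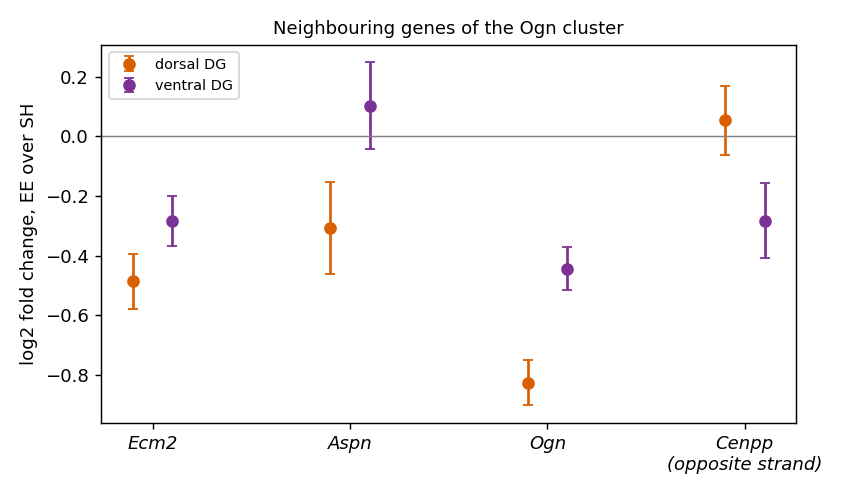
Points show the log2 fold change of EE over SH (vertical axis) of *Ecm2*, *Aspn*, *Ogn* and *Cenpp* in order of position except *Cenpp*, which overlaps the others on the opposite strand, and bars show the SE. *Ogn* lies lowest in both regions (-0.83 in dorsal and -0.44 in ventral DG), and *Ecm2* lies below 0 in both.

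RefSeq promoter windows (GRCm38.p6) were at hand for 6 of the 8 genes, not for *Dcn* and *Lum*. The 250 bases before the start are shown for *Ogn* and *Ecm2*, the genes at the ends of the cluster that were both lower in EE, and for *Prelp*, whose difference between regions is described below. They were read from chr13:49607765-49608014 (plus strand), chr13:49504560-49504809 (plus strand) and chr1:133921402-133921651 (minus strand), 5′ to 3′, and capitals mark matches on either strand to the searched motifs. These were the TATA box letters TATAAA, the AP-1 letters TGANTCA, the E-box letters CANNTG and the GC box letters GGGCGG.
Ogn: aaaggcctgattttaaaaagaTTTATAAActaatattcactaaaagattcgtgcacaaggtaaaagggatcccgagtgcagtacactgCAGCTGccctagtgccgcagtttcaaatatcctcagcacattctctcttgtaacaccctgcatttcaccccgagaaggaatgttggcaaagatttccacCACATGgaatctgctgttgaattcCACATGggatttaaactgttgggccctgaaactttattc
Ecm2: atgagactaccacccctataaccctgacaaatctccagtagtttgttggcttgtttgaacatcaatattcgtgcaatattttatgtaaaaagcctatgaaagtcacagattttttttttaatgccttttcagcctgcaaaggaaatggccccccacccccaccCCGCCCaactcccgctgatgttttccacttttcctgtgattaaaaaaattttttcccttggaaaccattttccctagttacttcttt
Prelp: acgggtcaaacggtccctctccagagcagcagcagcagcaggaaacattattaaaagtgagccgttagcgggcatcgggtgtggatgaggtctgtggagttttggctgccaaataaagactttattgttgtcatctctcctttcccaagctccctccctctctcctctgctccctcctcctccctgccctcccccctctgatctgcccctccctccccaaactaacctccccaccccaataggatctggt
The *Ogn* window held 3 E-box letters, beginning 162, 63 and 39 bases before the start, and 2 overlapping matches to the TATA box that begin 229 and 227 bases before it. The *Ecm2* window held 1 GC box and the *Prelp* window no match. Among 32851 promoter windows of this length, 66.2% held E-box letters, 12.4% the TATA box, 32.7% the GC box and 6.75% the AP-1 letters. No motif of the 4 was common to the windows of *Ogn* and *Ecm2*.

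Between regions, 4 of the 7 fitted genes were higher in ventral DG and 0 in dorsal DG, in the quasi-likelihood fit of edgeR with FDR taken over all genes tested. Over all genes 32.7% passed the same limits, 16.8% with the higher level in ventral and 15.9% in dorsal DG. DG of the 2 regions thus differed in a large share of genes. The median log2 fold change of dorsal over ventral DG was -0.43 for the 7 genes and -0.005 for the genes tested. Fewer cells of a type and less RNA per cell cannot be told apart in these bulk samples.

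*Dcn*, the founding member of its class, differed most. Its dorsal samples held 13.9, 10.0, 10.3 and 9.31 CPM in SH and 10.3, 11.7, 8.58, 8.24 and 7.48 CPM in EE. Its ventral samples held 24.2, 26.1, 19.2 and 25.2 CPM in SH and 30.8, 21.2, 27.9, 18.5 and 24.6 CPM in EE. Each ventral sample lay above each dorsal sample, and the log2 fold change of dorsal over ventral DG was -1.27 (SE 0.10, adjusted p = 6.37e-10 by edgeR), a level 2.40-fold higher in ventral DG.

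*Prelp*, a heparin-binding member that anchors basement membranes to connective tissue, came second. Its dorsal samples held 13.3, 12.7, 10.5 and 12.5 CPM in SH and 12.2, 10.7, 10.9, 10.2 and 8.99 CPM in EE. Its ventral samples held 19.4, 21.4, 16.3 and 22.5 CPM in SH and 22.6, 20.6, 21.4, 20.8 and 22.2 CPM in EE. The regions did not overlap, and *Prelp* was 1.82-fold higher in ventral DG (log2 fold change -0.86, SE 0.06, adjusted p = 9.87e-11 by edgeR).

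*Lum* was 1.42-fold higher in ventral DG (-0.51, SE 0.06, adjusted p = 3.40e-07 by edgeR), and *Ogn* 1.35-fold higher (-0.43, SE 0.05, adjusted p = 3.11e-07). Both were higher in the ventral sample of 9 of 9 pools. The *Ogn* difference was -0.24 (SE 0.08) within SH, a 1.18-fold difference short of the 20% limit, and -0.62 (SE 0.07) within EE, a 1.54-fold difference past it. Across housings the order of the regions turned, since the ventral EE samples of *Ogn* (13.9 to 16.1 CPM) lay below the dorsal SH samples (17.2 to 17.9 CPM).

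*Aspn*, *Fmod* and *Bgn* did not pass the test. *Aspn* had -0.25 (SE 0.11, adjusted p = 0.0503 by edgeR), with the ventral sample higher in 7 of 9 pools, and within EE it had -0.45 (SE 0.14, adjusted p = 0.0132). *Fmod* had -0.16 (SE 0.12, adjusted p = 0.269) and *Bgn* -0.08 (SE 0.08, adjusted p = 0.373), each higher in the ventral sample of 6 of 9 pools.

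Of 9 other genes of the family, 5 passed the count filter, and 3 of these were higher in ventral DG and 1 in dorsal DG. Over all tested genes the shares were 16.8% and 15.9%. *Podn* (-1.49, SE 0.26, at 2 to 17 counts), *Optc* (-1.44, SE 0.27, at 1 to 12 counts) and *Ecm2* (-0.70, SE 0.06) were higher in ventral DG, where *Optc* adjoins *Prelp* on chromosome 1. *Nyx*, known from retinal bipolar cells, was higher in dorsal DG (0.31, SE 0.10), and *Tsku* had -0.10 (SE 0.13). In EE, *Nyx* had -0.45 (SE 0.13) in dorsal and -0.33 (SE 0.14) in ventral DG and *Tsku* 0.27 (SE 0.18) and 0.25 (SE 0.18), all short of the limits. *Optc* (-0.97, SE 0.47 in dorsal and -0.55, SE 0.30 in ventral DG) and *Podn* (0.71, SE 0.46 and 0.39, SE 0.30) rested on few counts and were also short of them. The EE and SH samples of *Nyx* did not overlap in either region. How many of all genes had housing groups without overlap was not counted, so nothing is read from it for any gene named here. *Kera*, *Epyc*, *Chad* and *Podnl1* had 0 to 5 counts in a sample.

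The partners of the family were taken from lists of related genes. The counts of these lists, and of the cell type lists below, stand beside the shares of all tested genes. These were 16.8% higher in ventral and 15.9% higher in dorsal DG. With housing they were 0.634% in dorsal and 0.241% in ventral DG. Of 13 collagens that form or associate with fibrils, 6 were higher in ventral and 1 in dorsal DG. *Col12a1*, which encodes a collagen on the surface of fibrils, had the largest difference (-1.16, SE 0.06), followed by *Col6a1* (-0.77, SE 0.12) and *Col5a1* (-0.72, SE 0.12). *Col12a1* was also the only collagen of the list past the limits with housing, lower in EE in both regions (-0.50, SE 0.10 in dorsal and -0.41, SE 0.08 in ventral DG).

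Of 19 genes that build glycosaminoglycan chains, 4 were higher in each region and none differed past the limits with housing by edgeR, where 1 of 19 had an unadjusted p under 0.05 in each region. *B3gat3*, which completes the linker to the core protein, was higher in ventral DG (-0.62, SE 0.05), as was *Xylt1* (-0.47, SE 0.05), which starts it, and *B3gnt7* was higher in dorsal DG (0.51, SE 0.15). Of 7 TGF-beta ligands and binding proteins, *Ltbp2* was higher in dorsal DG (0.74, SE 0.30). Of 6 receptors reported to bind members of the family, *Met* (-1.44, SE 0.16) and *Egfr* (-0.39, SE 0.05) were higher in ventral DG. Of 6 fitted proteases, *Adamts5* (-0.36, SE 0.15) was higher in ventral and *Bmp1* (0.34, SE 0.06) in dorsal DG. None of the TGF-beta, receptor and protease genes passed the limits with housing.

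Meninges lie close to the DG and express several of the 8 genes, so 20 meningeal markers were summed in each sample. The sum was 111 to 127 CPM in dorsal SH, 99.9 to 140.0 in dorsal EE, 129 to 167 in ventral SH and 135 to 184 in ventral EE. The housing groups overlapped in both regions. EE differed from SH by -0.06 on the log2 scale in dorsal DG (exact permutation test over 126 splits, two-sided, p = 0.548, adjusted p = 0.603) and by 0.11 in ventral DG (exact p = 0.365, adjusted p = 0.548). The sum was 1.28-fold higher in ventral than in dorsal DG by pool (8 of 9 pools, exact sign-flip permutation, p = 0.00781, adjusted p = 0.0234 over 9 such tests). The median log2 fold change of dorsal over ventral DG over the 19 fitted markers was only -0.04, with 12 below 0 and 7 above. Without *Igfbp2* and *Igf2* the other 18 markers summed to 64.1 to 91.0 CPM in dorsal and 74.5 to 94.1 CPM in ventral samples, a 1.08-fold difference (6 of 9 pools, exact permutation p = 0.238), so these 2 genes carried most of the regional difference of the sum.

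The 4 meningeal markers with the highest mean TPM were *Igfbp2*, *Igf2*, *Slc6a20a* and *Slc6a13*. *Igfbp2* (-0.95, SE 0.09) and *Igf2* (-0.55, SE 0.08), both also expressed in choroid plexus, were higher in ventral DG, while *Slc6a20a* (-0.02, SE 0.07) and *Slc6a13* (-0.02, SE 0.08) had estimates near 0. In dorsal DG the log2 fold change of EE over SH was 0.12 (SE 0.14) for *Igfbp2*, 0.08 (SE 0.12) for *Igf2*, -0.08 (SE 0.10) for *Slc6a20a* and -0.04 (SE 0.12) for *Slc6a13*. In ventral DG it was 0.14 (SE 0.12), 0.31 (SE 0.11), -0.08 (SE 0.10) and -0.06 (SE 0.12) in the same order. *Slc47a1*, with 0 to 8 counts, and *Dpep1*, with 0 to 21 counts, were the markers at 0 in some samples, and the other 18 had 5 counts or more in each.

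Of 19 fitted meningeal markers, 6 were higher in ventral and 1 in dorsal DG, led by *Dpep1* (-4.16, SE 0.40), *Osr1* (-1.45, SE 0.14) and *Igfbp2*. Over all tested genes 16.8% were higher in ventral and 15.9% in dorsal DG. With housing 1 of 19 passed the limits in dorsal DG, *Ranbp3l*, lower in EE (-0.38, SE 0.08), and 0 of 19 in ventral DG by edgeR. Over all tested genes these shares were 0.634% and 0.241%. By edgeR 4 of 19 had an unadjusted p under 0.05 in dorsal DG and 2 in ventral DG, with no share of all genes to set beside them. The median log2 fold change of the 19 was -0.11 in dorsal DG, with 15 below 0 and 4 above. In ventral DG it was 0.08, with 7 below 0 and 12 above. For *Ogn* the values were -0.83 and -0.44. The sum without *Igfbp2* and *Igf2* was not compared between housings.

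Set against the meningeal sum, *Ogn* was lower in each EE sample than in each SH sample of its region. This is a description, since *Ogn* was chosen on its lower counts in EE. The mean sum in EE was 0.962 of that in SH in dorsal and 1.08 in ventral DG, so scaling changed little. The part of meningeal tissue in the housing difference of *Ogn* was not tested. *Ogn* amounted to 13.7 to 15.8 CPM per 100 CPM of the sum in dorsal SH and 6.69 to 10.2 in dorsal EE, and to 12.2 to 18.5 in ventral SH and 8.13 to 11.5 in ventral EE. The ratio of the EE to the SH mean was 0.593 in dorsal and 0.678 in ventral DG. For *Lum* this ratio was 0.811 and 0.808, for *Fmod* 0.888 and 0.733, for *Prelp* 0.910 and 1.01, for *Dcn* 0.885 and 0.969 and for *Bgn* 1.22 and 1.06. *Aspn* had 0.848 and 1.01, and *Omd*, on its few counts, 0.514 and 0.901.

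Between regions the outcome of such scaling depended on *Igfbp2* and *Igf2*. Per unit of the full meningeal sum, *Dcn* was 1.90-fold higher in ventral DG (9 of 9 pools, exact sign-flip permutation p = 0.00391, the smallest these 512 sign patterns can give, adjusted p = 0.0156 over 8 genes) and *Prelp* 1.44-fold higher (9 of 9 pools, exact p = 0.00391, adjusted p = 0.0156). *Ogn* differed 1.07-fold (6 of 9 pools, exact p = 0.418, adjusted p = 0.557). *Lum* (1.13-fold higher in ventral DG, 7 of 9 pools, exact p = 0.0234), *Bgn* (1.22-fold higher in dorsal DG, ventral higher in 1 of 9 pools, exact p = 0.0273) and *Fmod* (1.14-fold higher in dorsal DG, ventral higher in 2 of 9 pools, exact p = 0.0313) each had an adjusted p of 0.05, not under the limit. *Aspn* and *Omd* had exact permutation p values of 0.543 and 0.719. Per unit of the 18 markers without *Igfbp2* and *Igf2*, *Ogn* was 1.27-fold higher in ventral DG (7 of 9 pools, exact permutation p = 0.0156, adjusted p = 0.0312), *Lum* 1.34-fold, *Prelp* 1.71-fold and *Dcn* 2.26-fold (9 of 9 pools and adjusted p = 0.0104 each by exact permutation). With these 18 markers *Bgn* (1.02-fold, adjusted p = 0.766), *Fmod* (1.04-fold, 0.667), *Aspn* (1.12-fold, 0.412) and *Omd* (1.10-fold, 0.766) did not pass the exact permutation test. The ratio of the EE to the SH mean of *Ogn* per unit of the 18 markers was 0.628 in dorsal and 0.718 in ventral DG. These tests were chosen after the values by region had been seen.

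**Figure D4:**
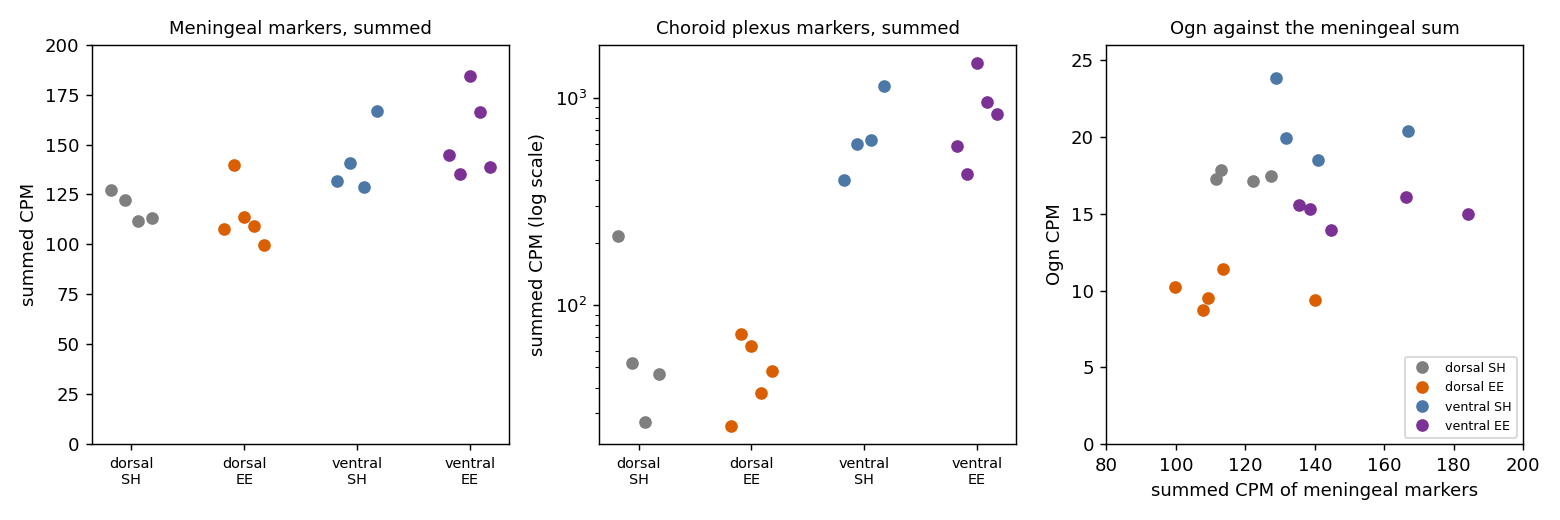
The first panels plot summed CPM of 20 meningeal and of 10 choroid plexus markers (log scale) for each sample by group, and the last plots *Ogn* CPM against the meningeal sum. Housing groups overlap in both sums. In the last panel dorsal EE samples (8.73 to 11.4 CPM of *Ogn*) lie below dorsal SH samples (17.2 to 17.9 CPM). The meningeal sum spans 99.9 to 140.0 CPM in dorsal EE and 111.5 to 127.3 CPM in dorsal SH. Of the dorsal EE samples only replicate 3 (113.6 CPM) falls within the SH range.

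Samples with a higher meningeal sum were compared with the level of each gene within a region (n = 9, 16 relations, exact permutation of pairings, two-sided). *Fmod* in dorsal DG was the only relation past an adjusted p of 0.05, with Pearson r = 0.90 (exact p = 0.00121, adjusted p = 0.0194) and Spearman rho = 0.88 (exact p = 0.00308, adjusted p = 0.0492). Without the 2 samples farthest from the median of the sum, r was 0.82. By Pearson r, *Dcn* in dorsal DG (r = 0.77, exact permutation p = 0.0159, adjusted p = 0.0847) and *Bgn* in ventral DG (r = 0.78, exact permutation p = 0.00885, adjusted p = 0.0708) came next. Their Spearman rho was 0.62 (exact permutation p = 0.0857) and 0.60 (exact permutation p = 0.0968), each with an adjusted p of 0.3035. The samples of *Ogn* fell apart by housing in both regions, as did those of *Lum* in dorsal DG, so no r over both housings is given for them. Groups of 4 and 5 samples were not tested on their own.

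Choroid plexus, the secretory tissue of the ventricles, adjoins the ventral hippocampus and has a stroma with fibroblasts. Its 10 markers were all higher in ventral DG, led by *Folr1* (-4.31, SE 0.37), *Ttr* (-4.10, SE 0.47) and *Kcnj13* (-4.01, SE 0.40). Their sum was 27.3 to 216 CPM in dorsal SH, 26.1 to 72.3 in dorsal EE, 401 to 1137 in ventral SH and 429 to 1473 in ventral EE, 13.6-fold higher in ventral DG (9 of 9 pools, exact permutation p = 0.00391, adjusted p = 0.0176). The part of choroid plexus in the regional differences of *Dcn*, *Prelp*, *Lum* and *Ogn* was not tested. Dorsal SH replicate 1, at 216 CPM, stood above the other dorsal samples (at most 72.3 CPM), and without its pool the same number of genes (4) passed between regions, with -1.33 for *Dcn* and -0.89 for *Prelp*. With housing 0 of the 10 markers passed the limits in either region by edgeR, where 1 had an unadjusted p under 0.05 in dorsal and 0 in ventral DG. The median log2 fold change of EE over SH of the 10 markers was -0.74 in dorsal DG, with 7 below 0, and 0.31 in ventral DG, with 10 above 0. Their sum differed between EE and SH by -0.41 on the log2 scale in dorsal DG (exact permutation p = 0.603, adjusted p = 0.603), by 0.20 there without SH replicate 1 (exact permutation p = 0.679). In ventral DG the sum differed by 0.29 (exact permutation p = 0.532, adjusted p = 0.603). The log2 fold change of *Ogn* in dorsal DG was -0.82 without SH replicate 1.

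Markers of mural cells, the smooth muscle and pericytes of vessels, summed to 237 to 269 CPM in dorsal and 249 to 317 CPM in ventral samples, 1.11-fold higher in ventral DG (9 of 9 pools, exact permutation p = 0.00391, adjusted p = 0.0176). *Tagln* (-0.34, SE 0.09) and *Acta2* (-0.30, SE 0.08), genes of smooth muscle, passed the limits among these 8. The sum of mural markers differed by 0.05 on the log2 scale between EE and SH in dorsal DG (exact permutation p = 0.214, adjusted p = 0.386) and by 0.15 in ventral DG (exact p = 0.0556, adjusted p = 0.125). Of 8 endothelial and 6 oligodendrocyte markers none passed between regions by edgeR (3 and 2 had an unadjusted p under 0.05). Of 6 astrocyte markers *S100b* (-0.60, SE 0.09) and *Slc1a3* (-0.27, SE 0.05), and of 6 microglia markers *Aif1* (-0.27, SE 0.11), were higher in ventral DG. None of the mural, endothelial, astrocyte, oligodendrocyte, microglia and granule cell markers passed the limits with housing.

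The genes whose level was most like that of *Ogn* over the 18 samples were sought among 12200 others with TPM over 1 in at least 3 samples, as a description in which region and housing contribute together. *Gpc3*, a glypican proteoglycan of the cell surface, was nearest (Pearson r of log2 CPM 0.92), followed by *Grb14* (0.91), *Matn2* (0.90), *Prr16* (0.88), *Tspan18* (0.88), *Lcorl* (0.87), *Gda* (0.87) and *Shmt1* (0.86). The log2 fold change of *Gpc3* with EE was -0.98 in dorsal and -0.42 in ventral DG, close in size to that of *Ogn*, whereas *Grb14* had -0.19 and -0.12. *Matn2*, which encodes a matrix adaptor protein, had -0.39 and -0.31. Among the 8 genes *Lum* was the most like *Ogn* (r = 0.80), in place 27 of the genes compared, and *Dcn* (0.54) and *Prelp* (0.56) stood far behind it. *Bgn* ran the other way (r = -0.36).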

How the data were processed

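RNA-Seq of dorsal and ventral DG was used, with groups and replicate numbers from the labels. SH replicate 3 was left out because a sample with high *Xist* expression had been excluded by the authors, and high *Xist* counts in both regions marked this one. Methylation libraries of the series (MethylC-seq and TAB-seq) were not used here. Paired reads were aligned by the authors to mm10, and the deposited counts are fragments per gene by strand, not normalized. The labels list Trim Galore 0.4.0, STAR 2.5.1b and RSEM 1.2.30. The deposited expected count of a gene shares out ambiguous fragments (rounded here), and the deposited TPM is scaled for length and library. *Rn7s2* took 20.6% to 30.4% of TPM, so levels of genes were ordered by TPM within libraries, and samples were compared by TPM only in an alternative fit and a filter.

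Counts of the sense strand were fitted with edgeR 4.0.16 in R 4.3.3 (TMM, quasi-likelihood, 4 groups in one model, Benjamini-Hochberg). The region contrast averaged the dorsal minus ventral difference over both housings. Alternatives used DESeq2 1.42.0 and limma 3.58.1 on log2(TPM + 1). Exact tests used python 3.11.15, numpy 2.4.6 and scipy 1.17.1. The fits were tested on simulated data. The members and lists were chosen with earlier results of these data known. Genes named are the 8 members, the 9 other family genes, up to 3 genes per list with the largest region difference among those past the limits, the 4 highest meningeal markers and the 8 genes most like *Ogn*. *Cenpp* and the list genes past the limits with housing were added after their values were seen.

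The 40 pairs of samples within groups held no identical counts (chi-square per degree of freedom 2.95 to 39.5). Gene names and positions came from Gencode on GRCm38 (45968 genes named). Dorsal and ventral samples of one number are paired, since they came from the same mice. The correlation of deviations from group means between dorsal and ventral samples of one number was -0.08 to 0.17.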

Additional observations from a re-analysis of the deposited data

How the results depend on the processing

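The log2 fold change of *Ogn* with EE stayed between -0.88 and -0.78 in dorsal and between -0.49 and -0.37 in ventral DG over 19 alternatives. The region contrast placed 4 of the genes past the limits, with 2 to 5 over 21 alternatives, and 4 in a paired fit with the pool as a replicate block (the housing contrasts took the replicate number instead, in a fit of their own). With limma on log2(TPM + 1), which compresses genes of low level, 2 genes passed between regions, and 0 passed with housing in dorsal and 0 in ventral DG. In that fit *Bgn* and *Fmod* reversed between regions (0.0225 and 0.0053), as did their interaction values (-0.059 and -0.0212). The ventral EE values of *Dcn* (-0.0947), *Prelp* (-0.0039) and *Aspn* (-0.0057) also turned below 0 there. DESeq2 placed 2 genes past the limits in dorsal EE. The mean of log2 CPM of the meningeal list gave 2 relations past an adjusted p of 0.05 in place of 1. Leaving out 1 pool gave interaction values of -0.093 to 0.0992 for *Bgn* and -0.1039 to 0.2287 for *Fmod*, which reversed without SH replicate 1 or EE replicate 2 (*Bgn*) and without SH replicate 5 or EE replicate 2 (*Fmod*). *Ogn* fell under the 20% limit between regions within SH alone (-0.24) and with limma (-0.18). *Lum* fell under it with limma (-0.19). The cause was not tested. Added after seeing the data, the meningeal list without *Igfbp2* and *Igf2* reversed the region values per meningeal sum of *Fmod* (to -0.0549), *Omd* (to -0.1383) and *Aspn* (to -0.1636), and the choroid plexus sum with EE in dorsal DG turned to 0.1954 without SH replicate 1.

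The labels give SH and EE samples of one number nothing else in common. The correlations of their deviations from group means were 0.08 to 0.16. What samples of one number share was not tested. With the replicate number as a replicate block, 172 in place of 108 of all genes passed in dorsal EE and 87 in place of 41 in ventral EE, and *Ogn* alone of the 8 genes passed in each. The replicate block changed no call among the 8 genes. In ventral EE the count over all genes was 18 without SH replicate 4, 24 without SH replicate 2, 26 without EE replicate 3, 75 with DESeq2, 78 with no filter on low counts, 26 with the TPM filter, 25 in a separate fit of ventral samples and 0 with limma. In dorsal EE it was 70 without SH replicate 4 and 4 with limma. Between regions it was 3448 with the TPM filter and 3343 with limma, in place of 5573. The interaction passed for 1 gene, for 2 with the replicate block, and for 0 with limma, the TPM filter or any pool left out. Depth limits *Omd*, *Optc* and *Podn*, whose values rest on few counts.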
